A study of Mus musculus with 5 samples.

Results

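The 6 genes described here encode the chains of collagens II, IX and XI, the collagens that build the fibrils of cartilage. They are Col2a1 for collagen II, Col9a1, Col9a2 and Col9a3 for collagen IX, and Col11a1 and Col11a2 for collagen XI. Each was taken as the array row whose annotation names that gene alone. Each had a single such row, so all 6 of 6 genes were measured, among 19938 genes tested. The arrays measured cartilage of the mandibular condyle, the head of the lower jaw in the jaw joint, in mice of strain 129/Sv. Of the 5 arrays, 2 carry RNA of mice labelled DDR-1-KO, a knockout of the collagen receptor Ddr1 (knockout mice 2 and 5), and 3 carry RNA of wild-type mice (3, 4 and 6). The labels give no age or sex and do not say how the Ddr1 allele was made, and each array carries the RNA of 1 named mouse. The array names carry 2 dates, called runs 1 and 2 here. Knockout 2 and wild type 3 share the earlier date, and knockout 5 shares the later one with wild types 4 and 6. The names do not say what was done on those dates.

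Collagen II chains join in threes of 1 kind to form the bulk of the cartilage fibril. Collagen XI lies within that fibril, starts its assembly and limits its width, and one of its chains is itself a product of Col2a1. Collagen IX joins a chain from each of its 3 genes, sits on the fibril surface and is cross-linked to collagen II. Ddr1 is a receptor tyrosine kinase that collagen activates. Which of the collagens described here it binds in this tissue was not tested.

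Levels below are log2 signals computed by the authors with RMA, a method that summarises all probes of a transcript on each array, and a difference of 1 is a doubling. Changes are knockout minus wild type on this scale, with p-values from limma adjusted by the Benjamini-Hochberg method over all genes tested and a threshold of 0.05. The 3 wild-type arrays had exactly 1 shared value in 39.1% of genes, which RMA can produce from unequal probes, and a spread of 0 then says nothing of how mice vary. Values of different genes come from different probes and are not set against each other. In bulk tissue, fewer cells of a type and less RNA per cell cannot be told apart. Ddr1 itself stood at 5.96 and 5.80 in knockout mice 2 and 5 and at 6.02 on each wild-type array, with -0.14 for the change (adjusted p = 0.377). The sign was not stable, at 0.011 after quantile normalisation, 0.035 after cyclic loess and 0.039 after centring and scaling. It therefore does not check the labels.

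All 6 genes had lower mean signals in knockout cartilage in the deposited values, and 1 of them, Col9a3, passed the test. The changes ran from -0.61 for Col9a3 to -0.054 for Col9a1, with a median of -0.37, beside a median of -0.0083 over all genes tested. The sign held in all 6 genes with the run as a block, but Col2a1 and Col9a1 turned positive under cyclic loess or centring and scaling of the arrays, and Col9a1 also after quantile normalisation and median centring. Of the 6 genes, 1 was called lower and 0 higher by limma, where 2.18% of all genes were called lower, 1.55% higher and 3.73% either way. At an unadjusted p under 0.05, 4 of the 6 were lower, where 10.9% of all genes were. In 4 genes, Col2a1, Col9a2, Col9a3 and Col11a2, both knockout arrays lay below every wild-type array, where this held for 18.6% of all genes and the groups were apart in either direction in 31.5%. An exact two-sided permutation test over the 5 arrays gave p = 0.2 for each of these 4 genes, the smallest p that 2 against 3 arrays allow, and p = 0.8 for Col9a1 and 0.6 for Col11a1.

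**Figure D1:**
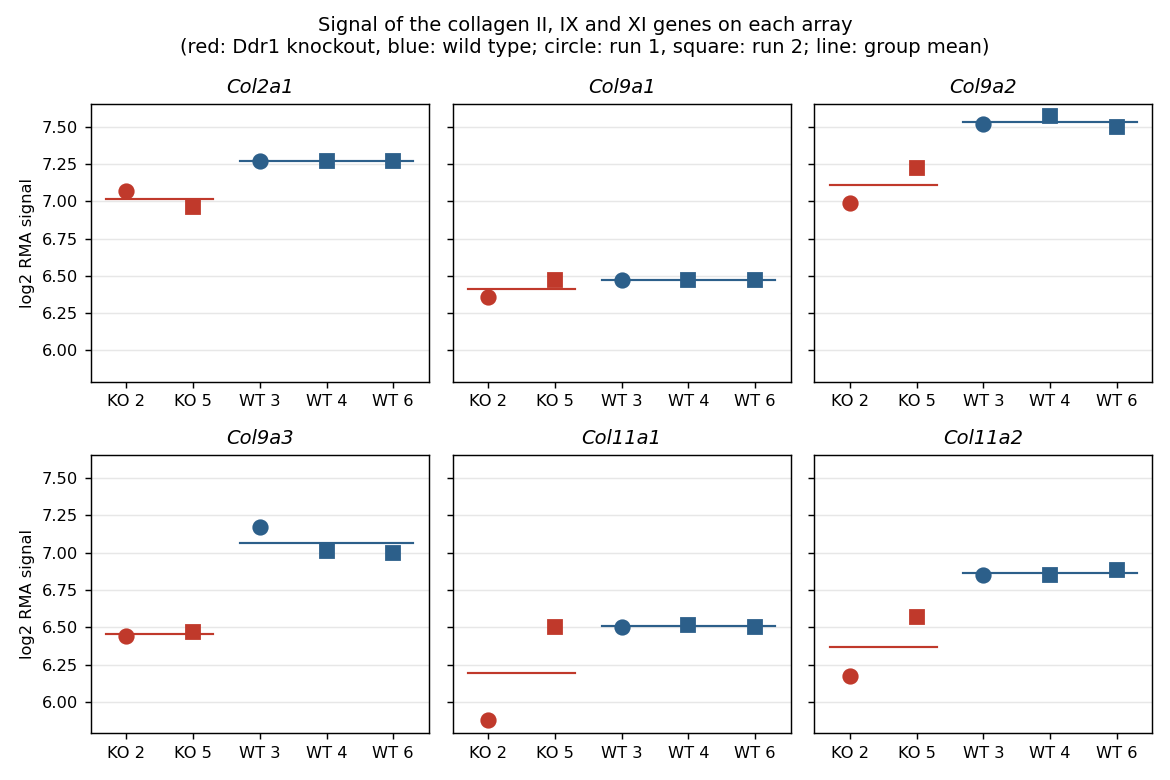
Log2 RMA signal (vertical axis) of each gene on each array, with red for the 2 knockout arrays (KO) and blue for the 3 wild-type arrays (WT), circles for run 1, squares for run 2 and a line at each group mean. Col9a3 is near 6.45 on both knockout arrays and at 7.0 or more in wild type, while Col9a1 is the same on 4 arrays and Col11a1 is low only on the array of knockout 2.

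Col2a1 encodes the chain of collagen II, the main fibril protein of cartilage. Its signal was 7.07 and 6.96 in knockout mice 2 and 5, against 7.27 on all 3 wild-type arrays. The groups did not overlap, and knockout 5 was the lower of the knockout arrays, unlike in the other 5 genes. The change was -0.26 (SE 0.039, 95% interval -0.37 to -0.14, adjusted p = 0.069). Its wild-type values were identical, so the SE rests on the knockout arrays and on limma's moderation. The difference was -0.20 within run 1 and -0.31 within run 2, and the sign turned, to 0.045 under cyclic loess (adjusted p = 0.823) and to 0.12 once arrays were centred and scaled (adjusted p = 0.649).

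Of the chains of collagen IX, Col9a3 fell, and Col9a2 and Col9a1 did not pass the test. Col9a3, whose chain is found in collagen IX with those of Col9a1 and Col9a2, had 6.44 and 6.47 in knockout mice 2 and 5, against 7.17, 7.01 and 7.0 in wild types 3, 4 and 6. The knockout arrays were close together and lay well below the lowest wild-type array. Col9a3 averaged 6.45 ± 0.017 (SD, n = 2) in knockout cartilage and 7.06 ± 0.096 (SD, n = 3) in wild-type cartilage. It fell by 0.61 on the log2 scale (SE 0.067, 95% interval -0.80 to -0.41, adjusted p = 0.0422 in limma), to 65.7% of the wild-type signal. All 5 of its values differed, so the SE rests on spread between mice and their arrays and on limma's moderation. It was 0.072 without moderation and 0.093 with genes of identical wild-type values left out. The difference was -0.73 within run 1 and -0.54 within run 2. Its adjusted p became 0.0797 in a fit with a run term, 0.0542 without knockout 2, and 0.106, 0.198 and 0.205 without wild type 3, 4 or 6. Cyclic loess left -0.34 (adjusted p = 0.181) and centring plus scaling left -0.31 (adjusted p = 0.216), so the size shrank by over 1.5 times while the sign held.

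Col9a2 had 6.99 and 7.22 in knockout mice 2 and 5, against 7.52, 7.57 and 7.50 in wild types 3, 4 and 6. The groups did not overlap, and all 5 values differed, with a wider gap between the knockout arrays than among wild type. It averaged 7.11 ± 0.16 (SD, n = 2) in knockout cartilage and 7.53 ± 0.036 (SD, n = 3) in wild-type cartilage, a change of -0.42 (SE 0.083, 95% interval -0.66 to -0.18, adjusted p = 0.105). Cyclic loess left -0.10 of it, and centring plus scaling left -0.035.

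Col9a1 carries the large non-collagenous domain of the cartilage form at one end of its chain. Its signal was 6.36 and 6.47 in knockout mice 2 and 5, and 6.47 on each wild-type array. Only the array of knockout 2 departed from the value shared by the other 4. The change was -0.054 (SE 0.040, 95% interval -0.17 to 0.060, adjusted p = 0.404), and it turned to 0.018 with arrays centred on the median, 0.12 after quantile normalisation, 0.17 after cyclic loess and 0.20 once also scaled.

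Between chains of collagen IX, differences in change can be read within each array, where a shift common to all its genes cancels. A shift that depends on signal strength, as described below, need not cancel. After cyclic loess the changes were 0.17 for Col9a1, -0.10 for Col9a2 and -0.34 for Col9a3. As Col9a1 had 1 value on 4 arrays, its pairs mostly follow the other chain. The log2 difference Col9a1 minus Col9a3 stood 0.51 and 0.59 above its wild-type mean in knockout mice 2 and 5, against -0.11, 0.049 and 0.062 in wild types 3, 4 and 6. For Col9a1 minus Col9a2 it was 0.43 and 0.31 in knockout mice 2 and 5, against 0.011, -0.041 and 0.030 in wild types 3, 4 and 6. In both pairs the knockout arrays lay above every wild-type array, with mean differences of 0.55 and 0.37 and an exact permutation p = 0.2 for each, the smallest allowed. For Col9a2 minus Col9a3 the mean difference was 0.19 (exact permutation p = 0.4), with the value of knockout 2, 0.081, inside the wild-type range. These are 3 of the 15 pairs that the 6 genes form, and no pair can pass a threshold of 0.05 in this test.

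Promoter sequences from the RefSeq table of the mouse assembly GRCm38.p6 were at hand for 4 of the 6 genes, Col9a1, Col9a2, Col11a1 and Col11a2. A pair of them is shown because the array values of these chains of the same collagen differ in pattern, Col9a2 with groups that do not overlap and Col9a1 with a single value on 4 arrays. The bases given lie before the first annotated base of each gene, 5′ to 3′ on the plus strand, at chr4:121039316-121039565 for Col9a2 and chr1:24177360-24177588 for Col9a1. Capitals mark a match to the GC box GGGCGG on either strand, the site read by factors of the Sp family.
Col9a2: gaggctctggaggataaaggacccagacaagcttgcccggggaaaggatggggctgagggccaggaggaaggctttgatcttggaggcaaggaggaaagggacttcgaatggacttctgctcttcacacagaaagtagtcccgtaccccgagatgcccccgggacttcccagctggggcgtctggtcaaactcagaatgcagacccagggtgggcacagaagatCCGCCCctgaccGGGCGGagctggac
Col9a1: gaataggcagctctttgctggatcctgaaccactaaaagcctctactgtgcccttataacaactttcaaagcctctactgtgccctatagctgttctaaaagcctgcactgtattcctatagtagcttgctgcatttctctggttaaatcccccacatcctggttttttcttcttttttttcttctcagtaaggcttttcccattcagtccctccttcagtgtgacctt
In the full window of 300 bases, which runs to 50 bases past the start, Col9a2 held 3 GC boxes, at -26, -14 and 43 from the start, Col11a1 and Col11a2 held 2 each and Col9a1 held 0 in both of its listed start sites. Of 32851 such windows in the table, 35.7% held at least 1. The exact strings ACAAAG and ACAATG, 2 forms of the SOX core, were searched on both strands. They were found in none of these windows, and in 18.7% and 12.6% of all windows. Other forms were not searched, so these windows cannot be called free of SOX sites. The bases shown hold another form, TCAAAG, for Col9a1 and, on the reverse strand, for Col9a2. The TATA box TATAAA, searched in the same way, was found in that of Col11a2 alone among these, and in 13.6% of all windows. This match lay at -143 from the listed start, and that start lies past the first annotated base of the gene. None of the marked matches overlapped another. The GC content was 61.7% for Col9a2, 62.3% for Col11a1 and 59.0% for Col11a2, and 47.3% at the first Col9a1 start. A match is a description of the letters and no evidence of binding.

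Collagen XI gave the widest gap between the knockout mice. Col11a2 had 6.17 and 6.57 in knockout mice 2 and 5, against 6.85, 6.85 and 6.88 in wild types 3, 4 and 6. Both knockout arrays were below every wild-type array. It averaged 6.37 ± 0.28 (SD, n = 2) in knockout cartilage and 6.86 ± 0.017 (SD, n = 3) in wild-type cartilage, a change of -0.49 (SE 0.134, 95% interval -0.88 to -0.10, adjusted p = 0.186). The difference was -0.68 within run 1 and -0.30 within run 2, and the change was -0.24 after cyclic loess.

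Col11a1 had 5.88 and 6.50 in knockout mice 2 and 5, against 6.50, 6.51 and 6.50 in wild types 3, 4 and 6. The array of knockout 5 had exactly the value of wild types 3 and 6, so the change of -0.32 (SE 0.212, 95% interval -0.93 to 0.29, adjusted p = 0.399) rested on knockout 2. Without knockout 2 it was -0.0035, and within runs 1 and 2 the differences were -0.63 and -0.0053. Col11a1 minus Col11a2 lay 0.056 and 0.29 above its wild-type mean in knockout mice 2 and 5, against 0.0064, 0.017 and -0.023 in wild types 3, 4 and 6. The mean difference was 0.17 (exact permutation p = 0.2).

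The knockout mice also differed from each other across the genes. The median difference of the 6 genes from the wild-type mean was -0.58 in knockout 2, with all 6 genes below it, and -0.30 in knockout 5, with 5 of the 6 below it and Col9a1 level with it. Col9a3 was the gene with the most even values, at -0.62 and -0.59 in knockout mice 2 and 5. Col11a1 was the least even, at -0.63 and -0.0035.

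The array of knockout 2 stood apart in other genes. Signals of all genes spread with standard deviations of 0.802 and 0.906 in knockout mice 2 and 5, and of 0.991 to 1.02 in wild-type mice, and with the narrower spread strong signals were lower and weak signals higher in knockout. In the 10% of genes with the strongest wild-type signals, which holds all 6 collagens, the median difference from the wild-type mean was -0.44 in knockout 2 and -0.17 in knockout 5. The median change in this band was -0.34 over 1994 genes, 85.6% of them below 0. With the band taken by the mean of all 5 arrays, which also holds all 6, it was -0.23. The 6 collagens, with a median of -0.37, are to be read beside these values. Of the genes in the band by wild-type signal, 49.4% had knockout arrays below every wild-type array and 6.12% were called lower.

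Against the band by wild-type signal, the 6 genes lay on both sides of its middle. Against the band by the mean of all 5 arrays, with a median change of -0.23, only Col9a1 lay above the middle. For Col9a3, 24.4% of the genes in the band by wild-type signal had a lower change, and for Col11a2 and Col9a2 34.5% and 41.2% had one. For Col11a1, Col2a1 and Col9a1 the shares were 52.5%, 58.8% and 79.4%. After cyclic loess, which removes level-dependent differences between arrays, the median of the 6 genes was -0.10, with 4 of them below 0. That of the band by wild-type signal was -0.11, and that of the band by the mean of all 5 arrays was -0.0014. After quantile normalisation the medians were -0.18 for the 6 genes, -0.17 for the band by wild-type signal and -0.057 for the other band. With arrays centred and scaled they were -0.071, -0.095 and 0.021 in the same order. The part that the spread of the signals plays in the changes was not tested beyond these scalings.

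**Figure D2:**
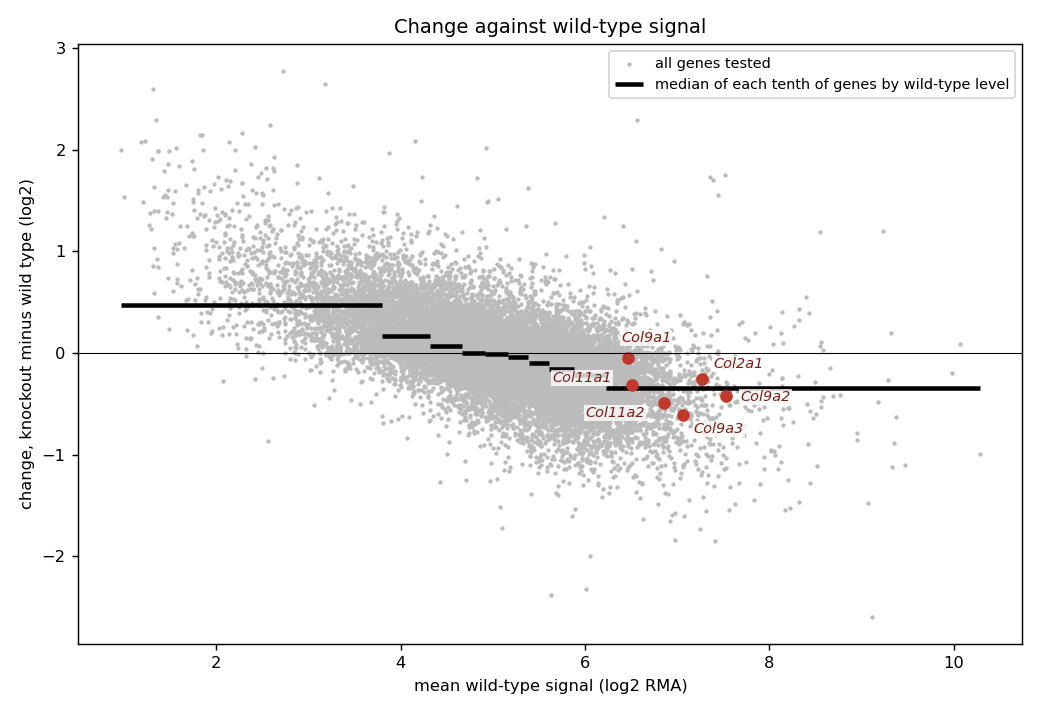
Change of each gene, knockout minus wild type on the log2 scale (vertical axis), against its mean wild-type signal (horizontal axis, log2 RMA), with all 19938 genes in grey, the 6 collagens in red and black lines at the median of each 10% of genes by wild-type signal. The line falls with rising signal, to -0.34 in the strongest 10%, and the 6 collagens lie on both sides of it.

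**Figure D3:**
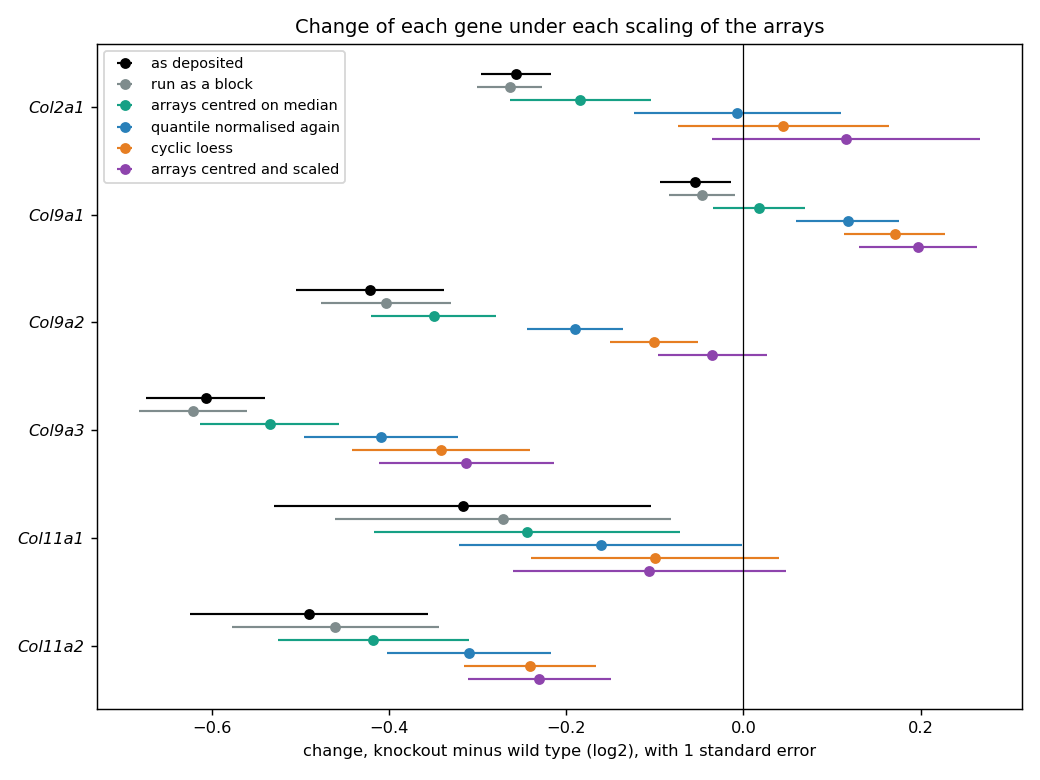
Change of each gene, knockout minus wild type on the log2 scale with 1 standard error, in the deposited values (black), with the run as a block (grey) and after each further scaling of the arrays. Col9a3, Col9a2, Col11a1 and Col11a2 stay below 0 in all 6 settings drawn, while Col2a1 and Col9a1 cross to the positive side in 2 and 4 of them.

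Most other collagens also had changes below 0. Of 38 other collagen genes measured, 34 had changes below 0, 2 fell past the threshold, 0 rose and 36 did not pass, and in 22 (57.9%) both knockout arrays lay below every wild-type array. Over all genes 10196 of 19938 had changes below 0, 2.18% were called lower and 18.6% were apart in this direction. In the band of the strongest 10% of wild-type signals 85.6% had changes below 0 and 49.4% were apart in this direction. That band starts at a signal of 6.22, and unlike the 6 genes, some of the 38 lie below it, such as Col12a1 at 5.33. It is therefore not a matched set for them. Under the 4 scalings 28 to 33 of the 38 had changes below 0. Their median change was -0.31, and -0.12 after cyclic loess, with median differences of -0.42 in knockout 2 and -0.18 in knockout 5. The 8 other fibril-forming collagens had a median of -0.40, with 0 calls, led by Col27a1 (-0.51, adjusted p = 0.064), a fibrillar collagen of cartilage, Col5a3 (-0.35, adjusted p = 0.102) and Col1a2, a chain of bone and tendon collagen (-0.45, adjusted p = 0.237). The 6 other fibril-associated collagens, the class of collagen IX, had a median of -0.17 and 0 calls, led by Col16a1 (-0.38, adjusted p = 0.0714). Among 24 further collagens, Col13a1, a transmembrane collagen, fell by 0.92 (adjusted p = 0.0276), and Col4a1, a basement membrane chain, fell by 0.24 (adjusted p = 0.0231), though its change was 0.0090 after centring and scaling. Col13a1 was at -0.69 after cyclic loess (adjusted p = 0.0904). Col13a1 had adjusted p = 0.0766 in a fit with a run term and 0.151, 0.153 and 0.179 without wild type 3, 4 or 6, and Col4a1 had 0.0666, 0.129, 0.177 and 0.203. The wild-type values of Col4a1 were identical, so its SE rests on the knockout arrays and on limma's moderation. Col18a1 of the same group, the source of endostatin, had -0.41 (adjusted p = 0.066).

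**Figure D4:**
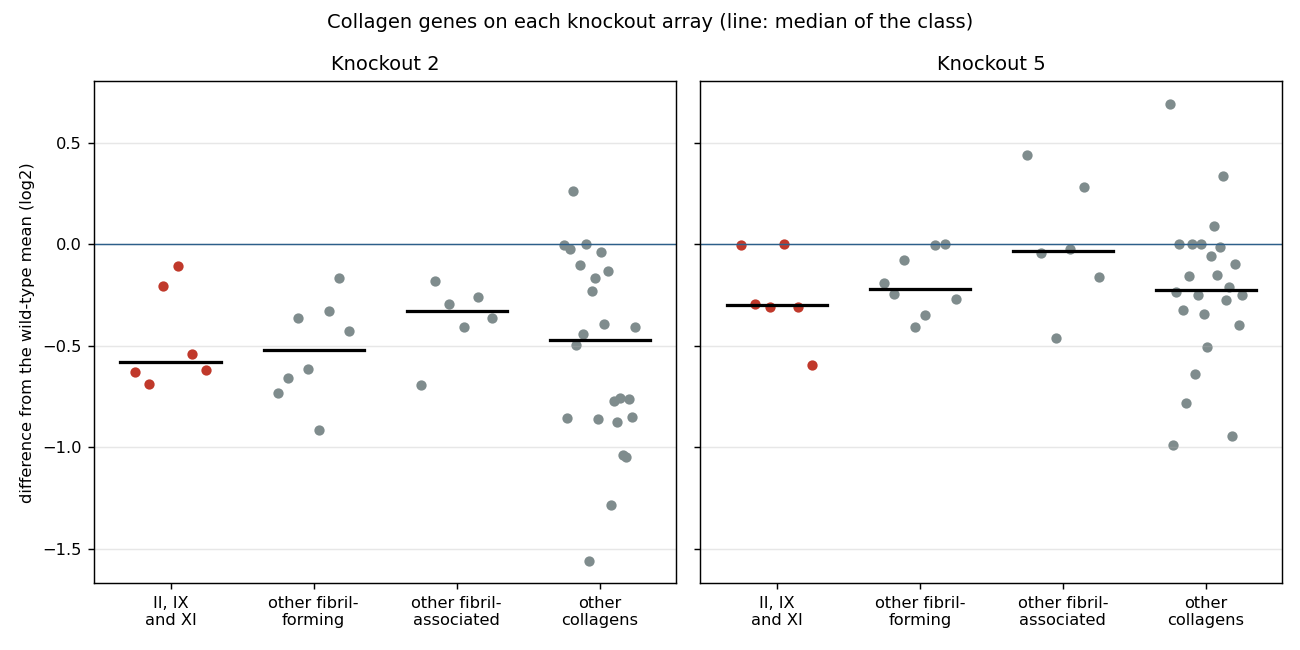
Difference from the wild-type mean (vertical axis, log2) of each collagen gene on the array of knockout 2 (left) and knockout 5 (right), with the collagen II, IX and XI genes in red, the other classes in grey and a line at each class median. The class medians of collagens II, IX and XI are -0.58 in knockout 2 and -0.30 in knockout 5, and those of the other fibril-forming collagens -0.52 and -0.22.

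Among genes that make, export and join these collagens, Serpinh1, Plod3 and Loxl3 fell, and the others did not pass. Of 20 measured folding and modification genes, 2 fell and 18 did not pass, where 2.18% of all genes were called lower, with a median change of -0.14. Serpinh1, the chaperone that binds the folded procollagen helix, was at 6.28 and 6.22 in knockout mice 2 and 5, against 6.54 on each wild-type array, and fell by 0.29 (SE 0.024, adjusted p = 0.0276). Plod3, which hydroxylates and glycosylates collagen lysines, was at 5.01 and 4.84 in knockout mice 2 and 5, against 5.44, 5.5 and 5.44 in wild types 3, 4 and 6, and fell by 0.54 (SE 0.064, adjusted p = 0.0459). Crtap, part of the prolyl 3-hydroxylase complex, had -0.51 (adjusted p = 0.151). After cyclic loess Serpinh1 was at -0.070 (adjusted p = 0.653) and Plod3 at -0.46 (adjusted p = 0.121). In the fit with a run term their adjusted p was 0.0684 and 0.0995, and without a wild-type array it ran from 0.148 to 0.205 for Serpinh1 and from 0.205 to 0.243 for Plod3.

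Of 15 export and processing genes 0 passed, with a median of -0.21. The lowest p was that of Mbtps1, the protease that activates membrane-bound transcription factors of the secretory pathway (-0.48, adjusted p = 0.132). Of 6 cross-linking enzymes, with a median of -0.094, 1 fell and 5 did not pass, where 2.18% of all genes were called lower. This was Loxl3, a lysyl oxidase, at 5.22 and 5.30 in knockout mice 2 and 5, against 5.65, 5.73 and 5.65 in wild types 3, 4 and 6 (-0.41, SE 0.044, adjusted p = 0.0397). It was at -0.29 after cyclic loess (adjusted p = 0.106), and its adjusted p was 0.0784 under the run block and 0.173, 0.181 and 0.215 without wild type 3, 4 or 6.

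Among 22 partners of the collagen II fibril 1 fell and 21 did not pass, where 2.18% of all genes were called lower. Their median change was -0.067, and 0.0053 after median centring. Comp, which binds collagens II and IX, was at 5.78 and 5.86 in knockout mice 2 and 5, against 6.27, 6.21 and 6.21 in wild types 3, 4 and 6 (-0.41, adjusted p = 0.0327). Cyclic loess left -0.22 (adjusted p = 0.163) and centring plus scaling left -0.23 (adjusted p = 0.156). Matn4 and Ucma had -0.45 (adjusted p = 0.126) and -0.63 (adjusted p = 0.131). Among 18 transcription regulators of these collagens 1 fell and 17 did not pass, where 2.18% of all genes were called lower. The one that fell was Sox9, the activator of the genes of collagens II, IX and XI, by 0.42 (adjusted p = 0.0229). Cyclic loess left -0.26 of it (adjusted p = 0.116). Next by p were Sox8, at -0.36 (adjusted p = 0.148), and Sp3, at -0.77 (adjusted p = 0.217). Of the 18 regulators, 11 had changes below 0. The median of the 18 was -0.030. It was 0.044 after quantile normalisation, 0.039 after cyclic loess, 0.042 after median centring and 0.018 after scaling too. Sox5 and Sox6, partners of Sox9 on Col2a1, had -0.043 (adjusted p = 0.697) and 0.012 (adjusted p = 0.963), and these were named after their values were seen. Comp, Sox9, Plod3 and Loxl3 each had 2 distinct wild-type values and Serpinh1 had 1, which limits their SEs in the same way. Comp had adjusted p = 0.0886 under the run block and 0.145, 0.185 and 0.205 without wild type 3, 4 or 6, and Sox9 had 0.0603, 0.134, 0.162 and 0.189.

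Of 13 enzymes and inhibitors of collagen II breakdown 0 passed, and their median change was 0. Mmp14, a membrane-bound collagenase, had -0.19 (adjusted p = 0.147), and Ctsk, the collagen-degrading cathepsin of osteoclasts, had 0.62 (adjusted p = 0.171) with both knockout arrays above every wild-type array. Of 10 collagen receptors 1 rose, 0 fell and 9 did not pass, where 1.55% of all genes were called higher and 2.18% lower. Their median change was 0. Itga11, the integrin chain that binds collagen I, rose by 0.29 (adjusted p = 0.0323), and was at 0.41 after cyclic loess (adjusted p = 0.0995). Itga10, the chain of the main collagen II-binding integrin of chondrocytes, had -0.44 (adjusted p = 0.0553). Itga11 had adjusted p = 0.0766 under the run block and 0.163, 0.198 and 0.215 without wild type 3, 4 or 6. Its wild-type values were identical, so its SE rests on the knockout arrays and on limma's moderation.

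In knockout 2 the summed signal lay below every wild-type array for the markers of cartilage, fibrous tissue and tendon, bone, muscle, macrophages and osteoclasts, fat and vessels, and above them for those of blood and nerve. In knockout 5 it lay below them for muscle and for fibrous tissue and tendon. It lay above them for blood, for macrophages and osteoclasts, unlike in knockout 2, and by a small margin for bone. The blood markers departed further than in knockout 2. The summed signal of 12 cartilage markers was 0.762 and 0.995 of the wild-type mean in knockout mice 2 and 5, against 0.988 to 1.01 in wild type. Of their changes 10 of 12 were below 0, where 10196 of all 19938 genes were, and 2 were called lower, where 2.18% were. In knockout 5 the sum joined higher and lower values, with 6 of the 12 below their wild-type mean. There Sox9 (5.63 against 6.02) and Ucma (5.10 against 5.52) were lower, and Acan (5.92 against 5.40) and Col10a1 (6.03 against 5.34) higher, named after their values were seen. For 9 fibrous and tendon markers the sums were 0.770 and 0.898 in knockout mice 2 and 5, against 0.942 to 1.07, and for 8 bone markers 0.800 and 1.01, against 0.994 to 1.01. For 10 skeletal muscle markers they were 0.807 and 0.905, against 0.950 to 1.03, and for 8 blood and marrow markers 1.06 and 1.12, against 0.982 to 1.02. For 8 macrophage and osteoclast, 6 fat, 8 vessel and 5 nerve markers the sums in knockout 2 were 0.771, 0.825, 0.856 and 1.10, and in knockout 5 1.04, 0.987, 0.979 and 1.01, against 0.98 to 1.02 in wild type over these lists. In these 4 lists Cidec, a lipid droplet protein, fell by 1.01 (adjusted p = 0.0231), and Nefl, a neurofilament chain, fell by 0.62 (adjusted p = 0.0125). Other members of their lists went the other way, with 3 of the 6 fat and 2 of the 5 nerve markers below 0. Lep of the fat list was at 0.50 and Nefm of the nerve list at 0.48, and neither passed. Cdh19, a cadherin of nerve sheath cells, rose by 0.50 (adjusted p = 0.0211), but was at -0.00076 after quantile normalisation (adjusted p = 0.996) and 0.069 after cyclic loess (adjusted p = 0.661). The wild-type values of Cdh19 were identical, and Cidec and Nefl each had a value shared by a pair of wild-type arrays, which limits their SEs. With a run term the adjusted p was 0.0620 for Cidec, 0.0517 for Nefl and 0.0549 for Cdh19, and without a wild-type array it ran from 0.106 to 0.179 over the 3 genes. These genes were named after their values were seen. The part of tissue composition in the collagen values was not tested. No call of detection was used here, so it cannot be said which markers were above background, and none is listed at 0. The levels therefore do not check the labelled tissue.

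The genes nearest in pattern, by the root mean square difference over the 5 arrays of values centred on the wild-type mean, were Acot11, Abcf1 and Wdr54 for Col2a1, at 0.0051 to 0.0099. For Col9a3 they were Apold1, Padi1 and C1qtnf12 at 0.020 to 0.027, and for Col9a2 they were Ppp1r15b, Tubg1 and Tcf3 at 0.017 to 0.020. For Col11a2 they were Gtf3a, Rnf39 and Zfp598 at 0.012 to 0.016, for Col11a1 Aqp9, Gapvd1 and Gstt3 at 0.0042, and for Col9a1 Washc2, Cfc1 and Slc2a12 at 0.00011. Such likeness was common with 5 arrays. Of 18261 genes searched, 197 lay within 0.1 of Col9a3, 424 of Col11a2, 570 of Col9a2, 982 of Col2a1, 1142 of Col11a1 and 5217 of Col9a1.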

How the data were processed

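Total RNA of 5 condylar cartilage samples was hybridised to Affymetrix mouse gene 1.0 ST arrays, 1 per mouse, per the labels' protocols. The deposited values are log2 signals that the authors made with Affymetrix Expression Console and RMA, per the submitters' processing notes. For tool versions and genome build, nothing is stated (not given in the sources used here). Of 35556 rows, 21789 had 1 gene symbol in the platform's annotation, 1621 several and 12146 none. Only the first were tested, with the row of highest mean for the 999 genes with several rows. Symbols were updated by gene identifier (19856 matched).

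The test was limma 3.58.1 under R 4.3.3 (lmFit and eBayes, all 5 arrays, no covariate, two-sided, Benjamini-Hochberg). The number of arrays limits the precision. The fit was tested on simulated data with equal spread in both groups, no shared values and larger changes than those of the 6 genes. This does not show how it behaves on the identical values and narrower knockout spread found here. Alternatives covered the run, rows, dim genes, identical values, variance model, array weights, normalisation and each array left out. The text names the 6 genes, genes past the threshold or of low p in each pathway list, and the 3 nearest patterns per gene, leaving out predicted and numbered genes. The 6 genes and the lists were chosen with earlier results of these data known, and list counts are descriptions. Of the measured list genes 14 stand in 2 lists, so the lists are not independent. The groups share no replicate number, so mice were not paired, and the run, read from 2 dates in the array names, was a block in an alternative fit.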

Additional observations from a re-analysis of the deposited data

How the results depend on the processing

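Of the 6 genes 1 passed, lower in knockout, and 0 passed higher in any setting run. The count of lower genes was 0 with the run as a block, every row tested, robust moderation, no moderation, array weights and each of the 4 scalings, and 0 to 6 with an array left out. With a lone knockout array (3 and 6 genes lower) its spread is taken from wild type, where identical values make it too small. Over all genes, 309 were higher and 435 lower. The run as a block, array weights, quantile normalisation and cyclic loess left 0 and 0 in limma (3829, 1038, 3761 and 3919 at an unadjusted p under 0.05). Arrays centred and scaled gave 69 and 81, no moderation 106 and 155, and genes above the median level 55 higher, with 12.3% of the calls being rises in place of 41.5%. Every row gave 54.8% and median centring 54.0%. Leaving out an array gave 0 to 3930 higher and 0 to 6069 lower, with 0 without each wild-type array. Array weights were 0.0279 for both knockout arrays and 3.91 to 19.8 for wild type, so that fit rests on wild type. Col2a1 turned to 0.045 (cyclic loess) and 0.12 (centred and scaled), and Col9a1 to 0.12 (quantile), 0.17 (cyclic loess), 0.018 (median centring) and 0.20 (centred and scaled). The cause was not tested. Few arrays and identical values limit every SE, and no signal over background was used here.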

Other observations

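Some other collagens with large changes did not pass the test, and these were chosen after their values were seen. Col28a1 was at 4.78 and 5.70 in knockout mice 2 and 5, against 6.53, 6.29 and 6.20 in wild types 3, 4 and 6, a change of -1.10 (SE 0.331, limma adjusted p = 0.218). Col6a6, a chain of the beaded filaments around cells, was at 6.26 and 6.36 in knockout mice 2 and 5, against 7.63, 7.17 and 7.12 in wild types 3, 4 and 6 (-0.997, adjusted p = 0.10). Col10a1, the collagen of hypertrophic chondrocytes, had the highest change of all collagens measured, 0.34, with values of 5.34 and 6.03 in knockout mice 2 and 5, against 5.14 to 5.44 in wild type.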
